A study of Mus musculus with 7 samples.

Results

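Hmga1, Hmga2, Igf2bp1, Igf2bp2, Igf2bp3, Lin28b and Mycn were chosen by name as body-size genes whose expression declines after birth, and the 7 symbols matched 7 of the 43346 genes in the allele counts. The data are RNA-seq counts from tibial growth plates of 7 male C57BL/6J x CAST/EiJ F1 mice, aged 21 days, numbered 1, 2, 3, 4, 5, 7 and 8. Each mouse carried a C57BL/6J (B6) and a CAST/EiJ (CAST) copy of every autosome, no treatment was applied, and there was no second group, age or genotype. The study used these mice to find genes expressed at different levels from the B6 and CAST alleles. Mitochondrial counts were 99.98% to 99.99% B6 in every mouse, so all 7 had B6 mothers and CAST fathers, and strain and parent of origin cannot be told apart. With a single age, the decline after birth was itself not measured here.

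The growth plate is the cartilage at the end of a long bone in which chondrocytes divide, enlarge and are replaced by bone. HMGA1 and HMGA2 are small chromatin proteins that bind AT-rich DNA, IGF2BP1, IGF2BP2 and IGF2BP3 are RNA-binding proteins named for the Igf2 mRNA, LIN28B blocks maturation of the let-7 microRNAs, and MYCN is a transcription factor of the MYC family. These genes are abundant in embryonic tissues, and let-7, which rises as tissues mature, is known to repress Hmga2, Lin28b and Igf2bp1 through sites in their 3′ UTRs.

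Because let-7 links these genes, its sequence and its possible sites are shown first. The 11 mature mouse microRNAs that share the let-7 seed (bases 2 to 8, capitals in the first line) were taken from RefSeq (GRCm38.p6), and let-7a stands for them below. The reverse complement of the seed, CTACCTC (capitals in the other lines), was searched on the transcript strand in the longest annotated 3′ UTR of each gene. The 4 matches in Hmga2 are printed because it is the classic let-7 target, with the first match in Lin28b, the first in Igf2bp1 and the only match in Hmga1 for comparison. Coordinates are GRCm38 (mm10).
mmu-let-7a-5p (chr13:48538239-48538260, minus strand): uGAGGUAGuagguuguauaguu
Hmga2 match 1 (chr10:120364215-120364241, minus strand): cattcaatttCTACCTCagcatcagtt
Hmga2 match 2 (chr10:120362978-120363004, minus strand): ctcctcaataCTACCTCtgaatgctac
Hmga2 match 3 (chr10:120362540-120362566, minus strand): ttgcaaggaaCTACCTCcacacttcca
Hmga2 match 4 (chr10:120361682-120361708, minus strand): aaacacactaCTACCTCttaagtccca
Lin28b match 1 (chr10:45381013-45381039, minus strand): ggcgggaagtCTACCTCatgcaagcac
Igf2bp1 match 1 (chr11:95961769-95961795, minus strand): gcgaagtaaaCTACCTCaaggtgtgaa
Hmga1 match (chr17:27563282-27563308, plus strand): tgttcacaaaCTACCTCtggacggttg

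Hmga2, Lin28b and Igf2bp1 each held 4 matches, in 3′ UTRs of 3014, 4445 and 6337 bases. Hmga1, Igf2bp2 and Igf2bp3 held 1 each, in 1183, 1784 and 2119 bases. Mycn, with 913 bases, held 0, which says only that these letters are not in that window. Of 20661 genes with a 3′ UTR of at least 50 bases, 9.18% held a match and 12 held 4 or more. Among 3′ UTRs of similar length to that of Hmga2 (no ratio of lengths under 0.8), 16.0% held a match and 0.123% held 4 or more, and the corresponding values were 24.3% and 0.295% for Lin28b and 34.3% and 0.331% for Igf2bp1. A match is a description of the sequence and not a tested site. The map of matches along the 3′ UTRs shows that the first match of Hmga2 and that of Lin28b lie within 60 bases of the stop codon, starting at bases 58 and 36 of the 3′ UTR.

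**Figure D1:**
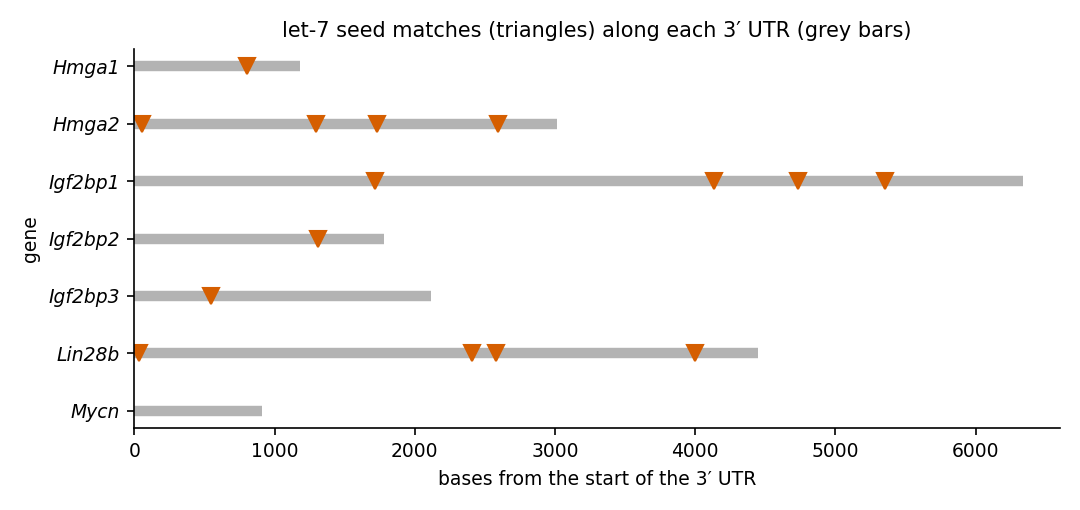
Positions of the 7-base match to the let-7 seed (triangles) along the longest annotated 3′ UTR (grey bars) of the 7 genes, in bases from the start of the 3′ UTR. Hmga2, Igf2bp1 and Lin28b hold 4 matches each, Hmga1, Igf2bp2 and Igf2bp3 hold 1 each, and Mycn holds 0.

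The 7 mice had 14098019 to 37849667 deposited counts each, which sets the precision of these mostly low genes. The labels call the tissue growth plate chondrocyte, and all 16 chondrocyte markers in a list (Col2a1, Acan, Sox9 and others) had at least 10 counts in every mouse, summing to 73909 to 115065 CPM (counts scaled to 1000000 per mouse). Markers of osteoblasts summed to 74244 to 126510 CPM, of erythroid cells to 8381 to 20331, of skeletal muscle to 3524 to 7714, of osteoclasts to 4151 to 6031, of neutrophils to 1474 to 3178, of B-lineage cells to 197 to 469 and of endothelial cells to 177 to 259 CPM, so the libraries held RNA of bone, blood and muscle beside cartilage. Few genes made up most of the chondrocyte, osteoblast and erythroid sums. On average Col2a1 stood at 53230 CPM among the chondrocyte markers. Col1a1 and Col1a2 stood at 46555 and 44682 CPM among the osteoblast markers, and Hba-a2 and Hbb-bs at 5719 and 5098 CPM among the erythroid markers. Fewer cells of a type and less RNA per cell cannot be told apart in such bulk samples.

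The 7 genes spanned a wide range of levels in these growth plates, with Hmga1 far above the others and Lin28b at the edge of detection. Levels between genes are compared as CPM per kilobase (kb) of annotated exon. Over 18322 protein-coding genes with a count in any mouse the median level was 1.79 CPM per kb. Hmga1 stood at 17.1 ± 3.87 (SD, n = 7 mice), at percentile 91.6 of these genes and 27.0 times the level of Igf2bp2. Its reads were partly divided with Hmga1b, a gene described below, so this level rests on that division. Every other member lay below the median coding gene in all 7 mice, with percentiles of 34.8 for Igf2bp2, 26.9 for Mycn, 25.8 for Igf2bp3, 19.7 for Hmga2, 13.3 for Igf2bp1 and 1.8 for Lin28b.

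Hmga1 (ENSMUSG00000046711, chromosome 17, 27556497 to 27563674, plus strand) had total counts of 641 at the lowest, 873 at the median and 1671 at the highest. In CPM it ran from 23.2 in mouse 3 to 46.6 in mouse 7. Its coefficient of variation over mice was 22.7%. Igf2bp2 (ENSMUSG00000033581, chromosome 16, 22059009 to 22163299, minus strand), the IGF2BP with roles in metabolism and muscle, was next at 0.636 ± 0.0717 CPM per kb (SD, n = 7). It was the steadiest member, with 66 to 179 counts and a coefficient of variation of 11.3%.

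Mycn (ENSMUSG00000037169, chromosome 12, 12936093 to 12941914, minus strand) had 11 to 39 counts, with a median of 23, and a level of 0.276 ± 0.0769 CPM per kb (SD, n = 7). Igf2bp3 (ENSMUSG00000029814, chromosome 6, 49085223 to 49214957, minus strand), an IGF2BP found mainly in embryonic tissue, had 25.9 to 67.5 counts and 0.234 ± 0.0744 CPM per kb. These neighbours did not separate, since Mycn was above Igf2bp3 in 5 of 7 mice and their ranges overlapped. With the longest transcript in place of merged exons as the length, Igf2bp3 stood above Mycn. Hmga2 (ENSMUSG00000056758, chromosome 10, 120361275 to 120476469, minus strand), the HMGA gene whose loss gives pygmy mice, had 7 to 25.8 counts and 0.0929 ± 0.0309 CPM per kb. That was below Igf2bp3 in all 7 mice with no overlap of ranges.

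Igf2bp1 (ENSMUSG00000013415, chromosome 11, 95957163 to 96005940, minus strand) had 5 to 10 counts per mouse, 50 in all, and 0.0298 ± 0.00906 CPM per kb (SD, n = 7). Its values ranged into those of Hmga2, although Hmga2 was the higher of the pair in each mouse. Lin28b (ENSMUSG00000063804, chromosome 10, 45376620 to 45486395, minus strand) had 1 count in mouse 5, 1 in mouse 8 and none in the other mice. In the 5 mice without a count, 0 allows up to 3 counts, or 0.0981 to 0.213 CPM depending on the mouse, for counting error only. Its paralog Lin28a, named here after its values were seen, had 77 counts on average, or 0.755 CPM per kb.

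**Figure D2:**
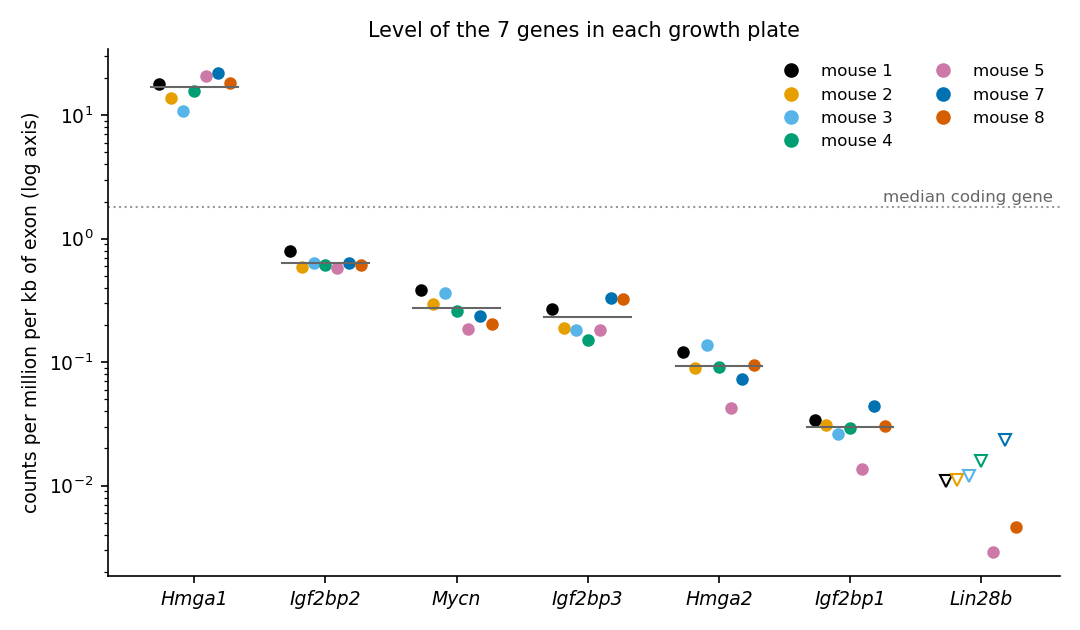
Level of each gene in each of the 7 mice (points, coloured by mouse), in CPM per kb of exon on a log axis, with the mean over mice as a grey line and the median protein-coding gene, 1.79, as a dotted line; open triangles mark the limit of 3 counts for mice in which Lin28b had none. Hmga1 lies above the dotted line in all 7 mice and the other genes below it.

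Next, the CAST and B6 alleles were compared over the 7 mice, in a main fit without a block for the mouse. Lin28b did not pass the filter of a count for at least 1 allele in every mouse, which left 6 of 7 members among 21805 tested genes. With edgeR's likelihood-ratio test and a false discovery rate (FDR) under 0.20, 2 of these 6 were called: Hmga1, with more counts from B6, and Igf2bp1, with more from CAST. Over all tested genes 32.6% were called, so 2 of 6 is near the background. Only Hmga1 had its ratio on the same side in all 7 mice, which 23.1% of tested genes did.

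Hmga1 counts from the B6 allele ran from 419 through a median of 591 to 1079, and from the CAST allele from 213 through 281 to 592. B6 exceeded CAST in each mouse, and B6 took 58.4% to 70.2% of the counts, although the 2 sets of counts overlap between mice. The fitted log2 ratio of CAST to B6 was -0.83 (edgeR FDR = 5.9e-06). The mean log2 ratio over mice was -0.86 ± 0.26 (SD, n = 7), and an exact permutation test that flips the sign of each mouse gave p = 0.0156 (two-sided), the smallest 7 mice can give, and p = 0.0682 adjusted over all tested genes.

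Hmga1 shares much of its sequence with Hmga1b (ENSMUSG00000078249, chromosome 11, 120762794 to 120764419, plus strand), a gene of 1 exon. The 324 coding bases of Hmga1b were identical to those of an Hmga1 transcript of 6 exons. Along 1602 aligned bases of the transcripts only 3 differed, none of them in the coding sequence. Of all 75-base windows in Hmga1 transcripts, the length of 1 read, 46.9% also occur in Hmga1b, and 84.0% of the windows in Hmga1b occur in Hmga1. These comparisons used the mm10 (B6) sequence, and the CAST sequence of the pair was not examined. In the B6 sequence, the 30 coding bases below, bases 121 to 150, show why a read can fit both. In Hmga1 the lower-case letters end an exon and the capitals begin the next, 1224 bases farther along, while in Hmga1b the same letters are contiguous.
Hmga1 (chr17:27559689-27559703 and chr17:27560928-27560942, plus strand): ctggtcgggagtcagAAAGAGCCCAGTGAA
Hmga1b (chr11:120763009-120763038, plus strand): ctggtcgggagtcagAAAGAGCCCAGTGAA

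In the allele counts Hmga1b was the mirror image of Hmga1. Its B6 counts were 0.56 at the lowest, 4.65 at the median and 18.6 at the highest, and its CAST counts were 177, 279 and 607. CAST exceeded B6 in every mouse with no overlap of the sets (log2 ratio 5.52, edgeR FDR = 1.2e-75). The counts of the pair were allotted differently on each allele, with 98.3% to 99.9% of the pair's B6 counts given to Hmga1 and 39.3% to 63.6% of its CAST counts. Of the total counts of the pair, Hmga1 was given 68.2% in mouse 2, the lowest, and 80.6% in mouse 1, the highest. Hmga1b stood at 7.44 ± 2.45 CPM per kb (SD, n = 7). The level of Hmga1 and its variation over mice depend on this division.

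Summed over Hmga1 and Hmga1b, a comparison added after the data were seen, the alleles were nearly even. The B6 counts of the pair were 614 ± 238 and the CAST counts 651 ± 274 (SD, n = 7), and B6 made up 47.3% to 50.8%. CAST was higher in 5 mice and B6 in 2, with a mean log2 ratio of 0.07 ± 0.08 (SD, n = 7, exact sign-flip permutation test p = 0.0938). In the edgeR fit the log2 ratio of the sum was 0.09 (FDR = 0.822), while blocking by mouse gave 0.10 (FDR = 0.0138). The B6 excess of Hmga1 and the CAST excess of Hmga1b are therefore uncertain as properties of either gene: an allele difference in the output of either gene and a different division of shared reads between them cannot be told apart in these counts.

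**Figure D3:**
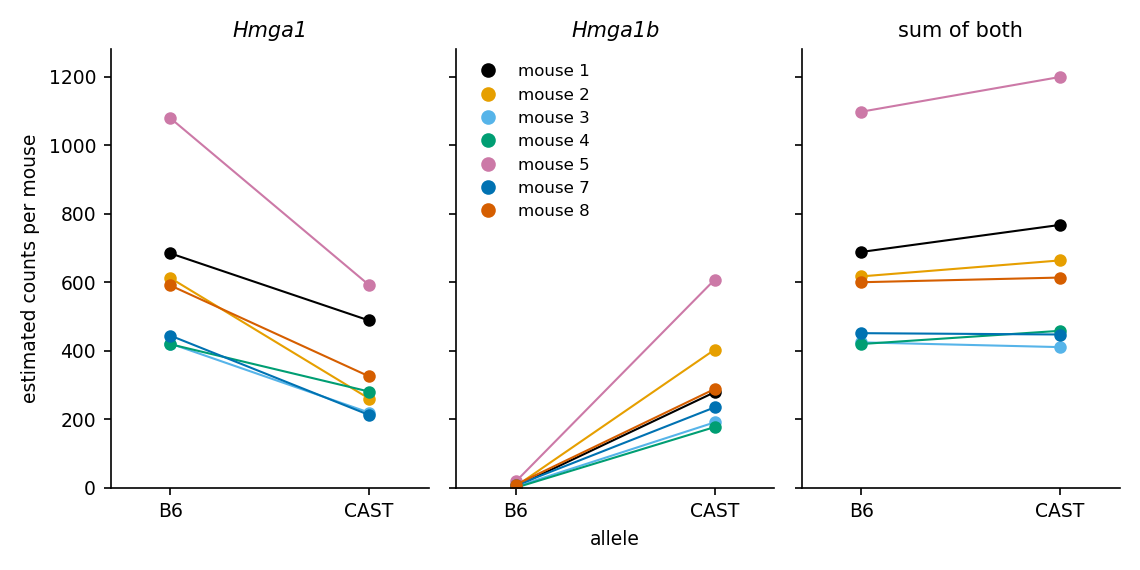
Estimated counts from the B6 and CAST alleles in each of the 7 mice (points joined by a line, coloured by mouse) for Hmga1, for Hmga1b and for their sum. Every line falls for Hmga1 and rises for Hmga1b, and the lines of the sum are nearly flat, with B6 shares of 47.3% to 50.8%.

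Igf2bp1 had 14.8 B6 and 35.2 CAST counts over all 7 mice. CAST was higher in 5 mice and B6 in 2, and the sets overlapped, from below 0.001 to 5.03 B6 counts and from 0.971 to 8.76 CAST counts. The log2 ratio was 1.18 (edgeR FDR = 0.128), with the FDR at 0.109 to 0.307 over 10 alternative fits and under 0.20 in 7 of them. With the mouse as a block the FDR was 0.191 by the likelihood-ratio test and 0.307 by the quasi-likelihood test. The call was lost without mouse 1 (FDR = 0.417), 2 (0.353), 3 (0.374) or 5 (0.222) and kept without mouse 7 (0.101) or 8 (0.171). Without mouse 4, in which B6 held 83.8% of its counts, the log2 ratio rose to 1.85 (edgeR FDR = 0.00392). The exact sign-flip permutation test gave p = 0.172, so the call for Igf2bp1 depended on the test and on which mice were included.

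The other 4 tested members were not called. Igf2bp2, with 435 counts from each allele over the 7 mice, had a log2 ratio of -0.03 (edgeR FDR = 1.0), and B6 was higher in 4 mice and CAST in 3. Its B6 share of 38.9% to 59.2% lay around an even split. The sign of this ratio turned without mouse 4, 7 or 8. Hmga2 had 65.3 B6 and 49.7 CAST counts over all mice and a log2 ratio of -0.33 (edgeR FDR = 0.696), which became 0.00 without mouse 3. In that mouse 77.6% of its counts were B6, while in mouse 5 the B6 share was 20.2%.

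Mycn had 64.8 B6 and 104 CAST counts over all mice, with CAST higher in 4 mice and B6 in 3. Its log2 ratio of 0.66 was not called (edgeR FDR = 0.298, exact sign-flip permutation p = 0.266). Its mice differed widely, from 7.86 B6 and 3.14 CAST counts in mouse 7 to 0.016 B6 and 16.0 CAST counts in mouse 8. Without mouse 7 it was called (log2 ratio 0.89, FDR = 0.148).

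Igf2bp3 had 199 B6 and 140 CAST counts over all mice, with B6 higher in 5 and CAST in 2, and a log2 ratio of -0.42 (edgeR FDR = 0.361). It too was called without mouse 7 (log2 ratio -0.66, FDR = 0.0928). Its 3′ end overlaps 1529 bases of Malsu1, a gene on the opposite strand, and 17.8% of its 75-base windows occur there. Malsu1 had 164 ± 48.5 B6 and 26.6 ± 17.0 CAST counts (SD, n = 7), with B6 higher in all 7 mice.

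**Figure D4:**
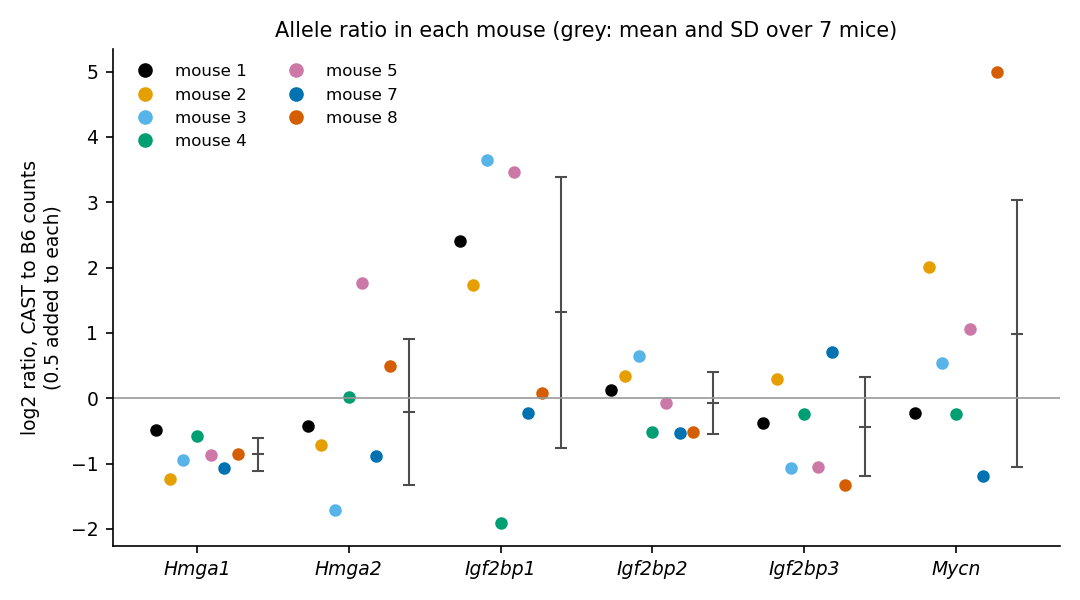
Log2 ratio of CAST to B6 counts, with 0.5 added to each, in each of the 7 mice (points, coloured by mouse) for the 6 tested genes, with the mean and SD in grey. Only Hmga1 lies on the same side of 0 in all 7 mice, from -1.23 to -0.49, and the other 5 genes have mice on both sides.

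Totals that were not whole marked members whose reads were divided with other genes. Counts of reads that fit several genes are divided, so such totals need not be whole. Totals of Igf2bp1, Igf2bp2, Lin28b and Mycn were whole within 0.0001 in all 7 mice, and those of Hmga1, Hmga1b and Igf2bp3 in none. A whole total does not show that no sequence is shared, since 18 windows of 75 bases in Igf2bp1 also occur in Mir3063. Lin28b, with 2 counts over all mice, could hardly show a divided read. Adding the partner restored whole sums (within 0.001) in all 7 mice: Igf2bp3 with Malsu1, Hmga2 with the antisense RNA 1700006J14Rik, and Hmga1 with Hmga1b and AI413582, a gene on the opposite strand that overlaps the last 102 bases of Hmga1. These sums held 80.6%, 58.7% and 48.7% B6 counts on average. In this paragraph the partners other than Hmga1b were named after their values were seen, and reads of the overlapping opposite-strand partners cannot be assigned by strand from these counts.

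The members that could be compared across mice were Hmga1, Igf2bp2, Igf2bp3 and Mycn, which had at least 10 counts in every mouse. Their levels in log2 CPM gave 6 pairs, of which 0 passed an adjusted p under 0.05 and 0 an unadjusted p under 0.05 in exact permutation tests of Pearson's r (0 adjusted and 1 unadjusted, Hmga1 with Mycn, with TMM-scaled library sizes). The highest was Igf2bp2 with Mycn, at r = 0.70 (exact permutation p = 0.0504, adjusted 0.302) and rho = 0.75 (p = 0.0663, adjusted 0.278). Without mice 1 and 5, farthest from the median of Igf2bp2, r was 0.21, so in CPM the relation rests on those mice. With TMM-scaled library sizes r was 0.67 (exact permutation p = 0.102, adjusted 0.305), and 0.58 without mice 1 and 4, the farthest under that scaling. Hmga1 with Mycn had r = -0.63 (exact permutation p = 0.137, adjusted 0.387) and rho = -0.68 (p = 0.110, adjusted 0.278), and r = -0.38 without mice 2 and 3.

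The levels of the 4 members were also set beside the 8 marker lists, in 32 relations added after the data were seen. By Pearson's r, 3 of them passed an adjusted p under 0.05, Hmga1 with the B-lineage and erythroid sums and Igf2bp3 with the chondrocyte sum, and by Spearman's rho none did, with 0.0720 as the lowest adjusted p. Of these 3, only Hmga1 with the erythroid sum also passed by r with TMM-scaled library sizes. Hmga1 with the B-lineage sum had r = 0.94 (exact permutation p = 0.00198, adjusted 0.0423) and rho = 0.96 (p = 0.00278, adjusted 0.0720), and r = 0.84 without mice 3 and 7. Mice 5 and 7, with the highest Hmga1 at 44.1 and 46.6 CPM, had B-lineage sums of 459 and 469 CPM, and mouse 3, with the lowest, had 197. Hmga1 with the erythroid sum had r = 0.89 (exact permutation p = 0.00397, adjusted 0.0423) and rho = 0.93 (p = 0.00675, adjusted 0.0720), and r = 0.80 without mice 5 and 7. With TMM-scaled library sizes the adjusted p of r was 0.0593 for the B-lineage sum, which no longer passed, and 0.0254 for the erythroid sum, by the same permutation test. The neutrophil sum, also of blood cells, did not pass, at r = 0.80 (exact permutation p = 0.025, adjusted 0.152) and rho = 0.82 (p = 0.0341, adjusted 0.218), and r = 0.77 without mice 2 and 5. Nor did Mycn with the erythroid sum (r = -0.83) or the endothelial sum (r = 0.84), each at an adjusted permutation p of 0.152. With TMM-scaled library sizes these r were -0.92 and 0.88, and that of Hmga1 with the endothelial sum was -0.83, each at an adjusted permutation p of 0.0593. All 9 B-lineage and all 8 erythroid markers had at least 10 counts in every mouse, although Hba-a2 and Hbb-bs made up most of the erythroid sum. The part of B-lineage and erythroid cells in the Hmga1 level, and that of reads shared with Hmga1b, was not tested.

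Igf2bp3 with the chondrocyte sum had r = -0.94 (exact permutation p = 0.00278, adjusted 0.0423) and rho = -0.93 (p = 0.00675, adjusted 0.0720), and r = -0.93 without mice 4 and 8. It was highest, at 2.64 and 2.72 CPM, in mice 8 and 7 with the lowest chondrocyte sums, and lowest, at 1.23 CPM, in mouse 4 with the highest. With TMM-scaled library sizes r was -0.74 (exact permutation p = 0.0345, adjusted 0.138), so this relation did not hold under that scaling. Chondrocyte markers made up a large share of each library, and their part in the Igf2bp3 level was not tested.

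**Figure D5:**
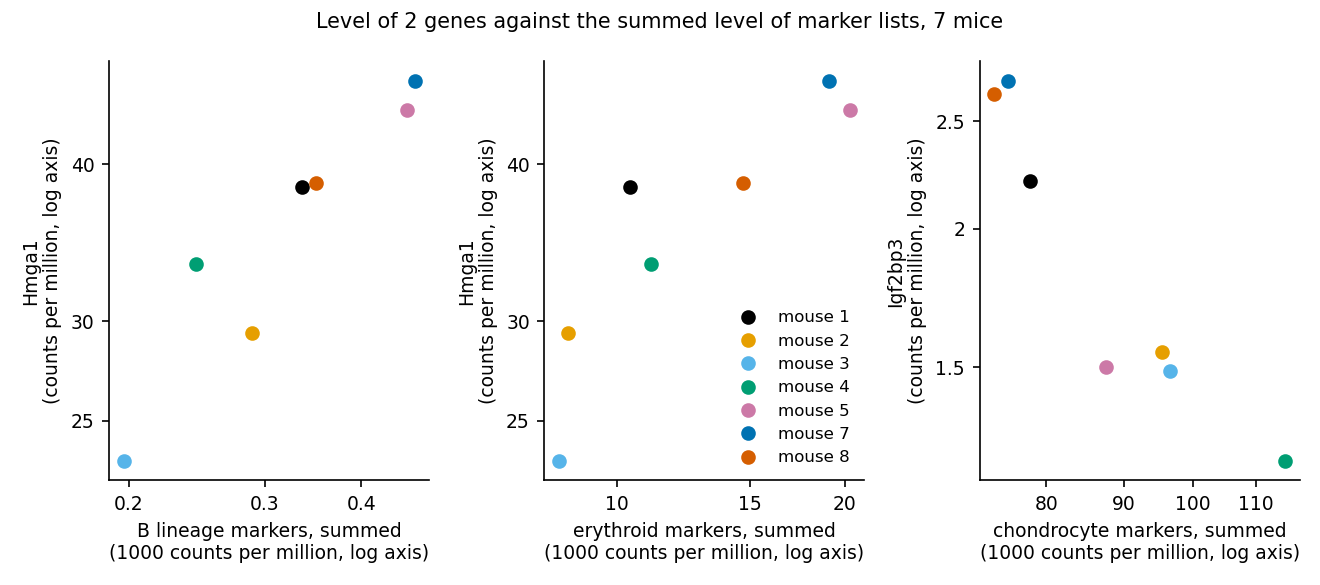
Level of Hmga1 against the summed B-lineage and erythroid markers, and of Igf2bp3 against the summed chondrocyte markers, in the 7 mice (points, coloured by mouse), all in CPM on log axes, with the marker sums divided by 1000. Hmga1 is lowest in mouse 3 and highest in mice 5 and 7, and Igf2bp3 is lowest in mouse 4.

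The genes whose levels followed each member most closely over the 7 mice, by the root mean square difference of centred log2 CPM among 15110 other genes, were also listed. For Hmga1 they were Tifab and Arhgap45, at 0.06 and 0.07 beside an SD of Hmga1 of 0.35. For Igf2bp2 they were Arid5b and Tom1l2 (0.04 and 0.05 beside 0.15), for Igf2bp3 Zfp874b and 4933406P04Rik (0.12 and 0.13 beside 0.45), and for Mycn Plat and Zmiz1os1 (0.06 and 0.11 beside 0.40). With so many genes and 7 mice, close neighbours are found for any profile, and these names describe likeness only.

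Genes that act with the members were described through 5 lists holding 85 genes in all. Of 82 tested, 29 were called, 13 with more CAST and 16 with more B6 counts, or 35.4% beside 32.6% of all tested genes, and their median log2 ratio was 0.00 beside 0.01. With the mouse as a block 45 were called, or 54.9% beside 42.7% of all tested genes. Among genes of the let-7 and LIN28 pathway, which holds let-7 processing factors and let-7 targets, 6 of 29 were called, 1 toward CAST and 5 toward B6. They included Arid3b, a DNA-binding factor (log2 ratio -0.55, edgeR FDR = 0.0067), Irs2, an insulin receptor substrate (-0.35, FDR = 0.0109), Thbs1, a matrix protein (0.26, FDR = 0.0574), and Dis3l2, the nuclease that degrades uridylated pre-let-7 (-0.26, FDR = 0.0642). Arid3b lies in Feml2, the femur length region that the study mapped. It was not among the genes that the study reported as allele-specific there, and the reason for the difference was not tested. The totals of Arid3b, Irs2 and Thbs1 were not all whole numbers, as with Hmga1. Lin28a was not called (-0.42, FDR = 0.307). In the MYC network 2 of 19 were called, both toward CAST: Mnt, a MAX-binding repressor (0.42, FDR = 0.0144), and Max, the partner of MYC proteins (0.16, FDR = 0.155).

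Among RNAs bound by IGF2BP proteins 4 of 11 were called (36.4% beside 32.6% of all tested genes), and H19 and Igf2 led them. H19 had 22531 B6 and 23.8 CAST counts on average (log2 ratio -9.92, edgeR FDR = 1.9e-283), and Igf2 had 623 B6 and 5150 CAST (3.06, FDR = 1.6e-50). Both are imprinted, H19 being active on the maternal and Igf2 on the paternal copy. Gli1 followed at 0.25 (FDR = 0.174) and Mapk4 at -0.67 (FDR = 0.167). The other juvenile growth genes, a list rich in imprinted genes, had 14 of 17 called (82.4%), 8 toward CAST and 6 toward B6. They were led by Meg3 (-8.84), Plagl1 (6.26), H19 and Grb10 (-3.63), the first 2 with an FDR below what the fit could represent and Grb10 at 1.0e-161. Gpc3 (-5.27, FDR = 2.4e-112) was also called toward B6, but it is X-linked and these males carry only the B6 X. None of the 6 tested members, which are autosomal, came near these ratios.

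Among other high mobility group genes and HMGA2 targets 5 of 10 were called, 1 toward CAST and 4 toward B6. Of those toward B6, Hmgb3 (log2 ratio -2.83, edgeR FDR = 4.2e-64) and Hmgn5 (-1.98, FDR = 0.000337) are X-linked. Male mice carry only the maternal X, here B6, so these calls do not compare a B6 with a CAST X. Hmgb3 still had 42.8 CAST beside 309 B6 counts on average, and its totals were not all whole numbers. The source of these CAST counts was not tested. Hmgn2 (-1.17, FDR = 4.5e-24), Hmgn3 (-0.66, FDR = 0.00324) and Hmgn1 (0.26, FDR = 0.0809) encode nucleosome-binding proteins, and the totals of these 3 genes were not all whole numbers, as with Hmga1.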

How the data were processed

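Total RNA of growth plates was made into stranded, rRNA-depleted libraries and sequenced as 2 x 75 bp reads. The authors aligned reads with Bowtie (at most 3 mismatches) to a joint B6 (mm10) and CAST transcriptome and deposited expected counts per gene and allele from EMASE, unnormalized, which need not be whole. The totals exceed the number of read pairs that the labels give as a mean, so how a count relates to a read pair is unknown here, and intervals and limits cover counting error only. Counting by strand is not stated.

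Names, coordinates and sequences came from GENCODE M21, which holds 42462 of the 43346 identifiers, and microRNAs from RefSeq. Counts were rounded. Genes for which each mouse had a count above 0 on either allele were compared between alleles with edgeR 4.0.16 (R 4.3.3, TMM factors, glmFit, glmLRT), adjusted by Benjamini-Hochberg over all tested genes. The threshold was FDR under 0.20, the study's value. The study does not state over which genes it adjusted, so the same FDR can stand for a different P in each. Sign-flip tests of log2 ratios used a pseudocount of 0.5 and all 128 sign patterns. The fit and the sign-flip test were checked on simulated data. CPM were scaled to the summed counts of each mouse. Each mouse was 1 replicate, and p-values of the sign-flip and correlation tests measure the spread between these mice. The main edgeR fit took the 2 alleles of a mouse as separate samples, so its P and FDR values leave out the pairing. The sign-flip test and the fits blocked by mouse used the difference within each mouse. Both alleles of a mouse come from the same library and animal, which pairs them. Deviations correlated little (-0.05 to 0.19 within a mouse, -0.21 to 0.17 between mice, over 15111 genes). That does not show that the pairing can be left out. With the mouse as a block in the likelihood-ratio fit, the called genes rose from 7111 to 9315 of 21805. Alternative settings included DESeq2 1.42.0, edgeR's quasi-likelihood test, the mouse as a replicate block, other library sizes, filters, thresholds, lengths and pseudocounts, and each mouse left out. The members and lists were chosen with earlier results of these data known. Named were all members, genes whose symbol begins with a member's symbol, up to 4 called genes per list with at least 10 counts in every mouse and the smallest P, and 2 like genes per member.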

Additional observations from a re-analysis of the deposited data

Results flagged for a closer look

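Dixon's criterion for 7 values was applied to 15 sets of mouse values, the CPM and log2 allele ratios of the 6 tested genes and Hmga1b and the ratio of the summed pair. It marked 1 set, where chance marks about 1 in 20. Igf2bp2 stood at 5.85 CPM in mouse 1, apart from 4.28 to 4.75 CPM in the other 6 mice.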

How the results depend on the processing

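Of the tested members, 2 were called. The count fell to 1 (Hmga1) under edgeR's quasi-likelihood test, also when blocked by mouse, under DESeq2, with at least 10 counts in every mouse, which removes Igf2bp1, and at FDR under 0.05. It fell to 1 (Igf2bp1) with Hmga1 and Hmga1b summed, stayed at 2 (the sum and Igf2bp1) when that fit was blocked by mouse, and ran from 1 to 4 with each mouse left out. The log2 ratio of Hmga1 turned from -0.83 to 0.0932 when it was summed with Hmga1b, or 0.10 with a replicate block for the mouse. That of Hmga2 ran from -0.52 to 0.00484 and that of Igf2bp2 from -0.15 to 0.0457 with each mouse left out, and their mean ratios over mice from -0.534 to 0.0451 and from -0.195 to 0.000802. Of related genes, 29 were called, beside 32.6% of all tested genes. With a replicate block for the mouse 45 and 44 were called (likelihood-ratio and quasi-likelihood tests), beside 42.7% and 37.6% of all tested genes. Among the 10601 tested genes with whole-number totals 14 were called, beside 32.6% of those genes. That setting also removed related genes, so 14 and 29 are not out of the same number. The ratio of Hmga1 to Igf2bp2 levels was 27.0, and 19.2 by longest-transcript length. The correlation of Hmga1 with Igf2bp2 turned from 0.03 to -0.0910 with TMM and -0.19 without 2 mice, and that of Igf2bp3 with Mycn from -0.14 to 0.53 without 2 mice. The causes were not tested except where removed or summed genes are named. No alternative varied the depth, so its part in the results of members with few counts was not tested.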
